A study of Homo sapiens with 2 samples.

Results

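The genes described here are the core regulators and read-outs of the epithelial to mesenchymal transition (EMT), chosen by name: the transcription factor genes SNAI1, SNAI2, ZEB1, ZEB2 and TWIST1, the cadherin genes CDH1, CDH2 and CDH11, the filament gene VIM and the adhesion gene EPCAM. All 10 were matched by gene number in the deposited tables and all 10 had at least 10 counts in both libraries, out of 18518 gene numbers listed in 1 table or both. The data were bulk RNA sequencing of 1 library of MEIS1-/- cells and 1 library of wild-type cells, both of the H1 line, which is an established line of human embryonic stem cells. Both cultures were steered towards blood in steps of 2 days, the first with activin A (40 ng/ml) plus BMP4 (50 ng/ml) and the second with VEGF (40 ng/ml) plus bFGF (50 ng/ml). Both were sampled at day 3, inside the second step. The labels gave neither the deleted part of MEIS1 nor the number of clones or cultures behind a library. The question was how expression at day 3 differed once MEIS1, a homeodomain partner of HOX and PBX proteins, was deleted.

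During EMT, cells give up the lateral junctions of an epithelium and become migratory, and in the embryo this happens when epiblast cells leave the primitive streak to form mesoderm. SNAI, ZEB and TWIST proteins bind E-box sequences and repress epithelial genes, CDH1 (E-cadherin) being their textbook target, while CDH2 (N-cadherin), CDH11 and VIM (vimentin) are the textbook genes gained. The exchange of E-cadherin for N-cadherin is known as the cadherin switch.

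Total counts after rounding were 5296431 in the MEIS1-/- library and 5202877 in the wild-type library. With 1 library per genotype there was no replicate spread and no test, so each difference is one between these 2 libraries. Ratios are MEIS1-/- over wild type after TMM scaling, a correction for library size and composition, and carry 95% intervals that cover counting error only. A gene is called higher or lower where that interval excluded 1. MEIS1 itself had 68 counts in the MEIS1-/- library and 89 in the wild-type library, a ratio of 0.759 (0.543 to 1.05), and the tables did not show which part of the gene the reads came from, so the genotype labels were not checked by it.

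Of the 10 genes, SNAI2, ZEB2 and VIM were higher in the MEIS1-/- library, SNAI1, CDH2 and EPCAM were lower, and ZEB1, TWIST1, CDH1 and CDH11 had intervals that included 1. Across the 14381 genes that reached 10 counts in either library, the interval lay above 1 for 15.4% and below 1 for 14.7%. Counting intervals narrow with depth, and among the 2715 genes with at least 500 counts, a limit set after the values were seen, these shares were 28.7% and 25.1%, against 3 and 2 of the 7 members that deep. SNAI1 was the 1 gene that differed by at least 2-fold with an interval that excluded 1, in the lower direction, where 2.95% of all compared genes did so, and 0 of the 10 were higher by that rule, against 2.90% of all compared genes. A limit of 1.5-fold gave the same members, 0 higher and 1 lower, against 5.75% and 6.21% of all compared genes. Among genes with at least 500 counts, 0.884% were at least 2-fold higher and 0.884% at least 2-fold lower, and 0 of the 7 members were either. The median log2 ratio of the 10 genes was -0.13, against 0.0032 over all compared genes.

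**Figure D1:**
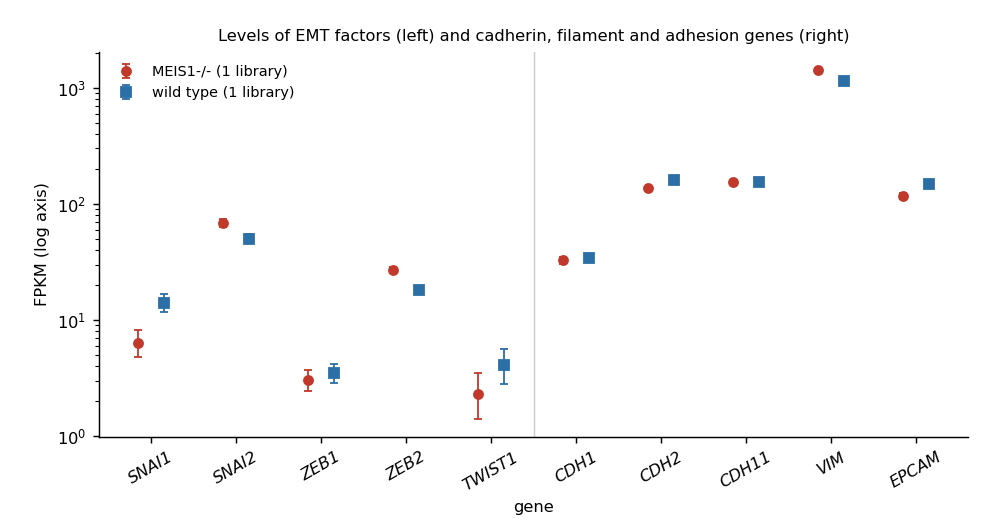
Expression of the 10 genes in FPKM, a read count scaled for gene length and library depth, on a log axis, in the MEIS1-/- library (red circles) and the wild-type library (blue squares); bars are 95% Poisson counting intervals from 1 library each. VIM stands highest, at 1415 FPKM in the MEIS1-/- library and 1142 FPKM in the wild-type library, and the points are widest apart for SNAI1, at 6.3 FPKM in the MEIS1-/- library and 14.1 FPKM in the wild-type library.

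Among the transcription factors, the 2 SNAI genes went opposite ways. SNAI1 (Snail, gene 6615, chromosome 20), which in mouse embryos is needed for cells to leave the streak, had 57 counts in the MEIS1-/- library and 125 in the wild-type library, or 6.3 and 14.1 FPKM. It was 2.20-fold lower (1.61 to 3.09), and 2.52% of all compared genes had a lower ratio. SNAI2 (Slug, gene 6591, chromosome 8), its close relative in neural crest and mesoderm, had 762 counts in the MEIS1-/- library and 549 in the wild-type library, or 68.4 and 50.2 FPKM. It was 1.37-fold higher (1.23 to 1.54), and 11.3% of all compared genes had a higher ratio. The SNAI2 to SNAI1 ratio was thus 10.9 in FPKM in the MEIS1-/- library and 3.57 in the wild-type library, and this balance was 3.04-fold higher (2.16 to 4.32) in the MEIS1-/- library, a comparison that library scaling cannot alter.

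The ZEB genes encode zinc finger repressors with a homeodomain, and here ZEB2 was the abundant one. ZEB2 (gene 9839, chromosome 2) had 1239 counts in the MEIS1-/- library and 839 in the wild-type library, or 26.8 and 18.1 FPKM, and was 1.46-fold higher (1.34 to 1.60), with 9.04% of all compared genes at a higher ratio. ZEB1 (gene 6935, chromosome 10) had 95 counts (3.01 FPKM) in the MEIS1-/- library and 109 counts (3.48 FPKM) in the wild-type library. Its ratio of 0.864 (0.648 to 1.15) had an interval that included 1. The FPKM ratio of ZEB2 to ZEB1 was 8.90 in the MEIS1-/- library and 5.20 in the wild-type library, a balance 1.69-fold higher (1.26 to 2.29) in the MEIS1-/- library.

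The ZEB genes were the members with several RefSeq transcripts in the tables, 3 for ZEB2 and 6 for ZEB1, and the only ones of the 10 whose average length differed between the tables. The ZEB2 length was 8654 bases in the MEIS1-/- table and 8832 in the wild-type table, and the ZEB1 length was 5911 bases in the MEIS1-/- table and 5956 in the wild-type table, so a different mix of isoforms was estimated in each library. ZEB1 counts were also not whole (94.8 and 108.7 before rounding), which means that reads were divided between genes. The labels did not say whether the libraries kept strand, and each ZEB gene has an antisense neighbour. ZEB1-AS1 had 2 counts in the MEIS1-/- library and 11 in the wild-type library, and ZEB2-AS1 had 6 in the MEIS1-/- library and 8 in the wild-type library. With these added, an alternative chosen after the values were seen, the log2 ratio was -0.32 (-0.72 to 0.076) for ZEB1 and 0.54 (0.41 to 0.67) for ZEB2.

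The miR-200 microRNAs are the known brakes on both ZEB genes in epithelial cells, and their mature sequences are shown because ZEB1 and ZEB2 carry many matches to them. Sequences are from RefSeq (GRCh38.p14), 5′ to 3′, with the seed (bases 2 to 8) in capitals.
miR-200b-3p: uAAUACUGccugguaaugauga
miR-200c-3p: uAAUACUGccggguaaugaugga
miR-429: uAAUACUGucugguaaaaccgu
miR-200a-3p: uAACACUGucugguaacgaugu
miR-141-3p: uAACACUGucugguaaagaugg
The first 3 share the seed AAUACUG and the other 2 share AACACUG.

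Matches were counted in 1 GENCODE version 29 transcript (GRCh38) per gene, which corresponds to 1 of its several listed RefSeq transcripts. Its 3′ untranslated region held 8 seed matches for ZEB1 in 1938 bases and 9 for ZEB2 in 5370 bases. Of these, 5 in each gene matched the seed AAUACUG, with the letters CAGTATT, and 3 in ZEB1 and 4 in ZEB2 matched AACACUG, with the letters CAGTGTT. Over the longest 3′ untranslated region of 19164 protein-coding genes, 28.3% had at least 1 such match. In 10 genes there were 8 or more, a limit equal to the ZEB1 count. Those regions had a median length of 1103 bases and were not matched for length. Per kilobase there were 0.252 matches over all genes, 4.13 for ZEB1 and 1.68 for ZEB2. A site of each kind is shown for either gene on the transcript strand, with the seed match in capitals.
ZEB1, chr10:31527611-31527640, plus strand: atctggcattgttttatcttatCAGTATTa
ZEB1, chr10:31528024-31528053, plus strand: aggacagcaaaatcatcagaatCAGTGTTt
ZEB2, chr2:144389052-144389081, minus strand: aggtgcccgcactaccatacatCAGTATTt
ZEB2, chr2:144389236-144389265, minus strand: tgcattatgcaaaaattttgtaCAGTGTTa
Mature microRNAs were not measured by these libraries, and a letter match is a description and not a site shown to be used.

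TWIST1 (gene 7291, chromosome 7), a basic helix-loop-helix factor of mesenchyme and neural crest, was the least abundant of the 10 by count. It had 20 counts in the MEIS1-/- library and 35 in the wild-type library, or 2.28 and 4.06 FPKM. The ratio of 0.577 (0.309 to 1.01) had an interval that just included 1, and scaling by total counts moved its upper limit below 1. At this depth a difference of that size was not resolved.

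Among the 5 factors together, SNAI2 made up 64.1% of summed FPKM in the MEIS1-/- library and 55.8% in the wild-type library, and ZEB2 made up 25.1% in the MEIS1-/- library and 20.1% in the wild-type library. SNAI1 held 5.90% in the MEIS1-/- library and 15.6% in the wild-type library. The summed level of the 5 was 106.7 FPKM in the MEIS1-/- library and 89.9 FPKM in the wild-type library, with SNAI2 and ZEB2 the genes that were higher.

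**Figure D2:**
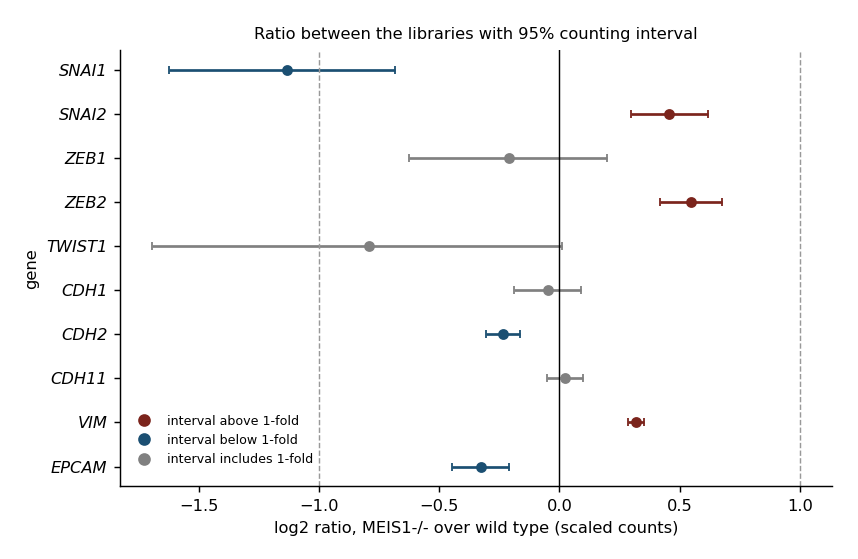
Log2 ratio of scaled counts, MEIS1-/- over wild type, for the 10 genes with 95% counting intervals; dashed lines mark a 2-fold difference. SNAI1 at -1.13 is the only point beyond a dashed line, ZEB2 is highest at 0.55, and CDH1 and CDH11 straddle 0.

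Promoter windows were sought for all 10 genes, because SNAI, ZEB and TWIST proteins bind E-boxes. RefSeq windows (GRCh38.p14, 250 bases before to 50 after a start) were found for 4 of the 10 genes, namely ZEB1, ZEB2, VIM and CDH2; SNAI1, SNAI2, TWIST1, CDH1, CDH11 and EPCAM had no entry. They were searched on both strands for the E-box CANNTG and for its SNAI and ZEB type, CAGGTG or CACCTG, which is a subset of CANNTG. Capitals mark each CANNTG, and of 2 CDH2 windows and 7 ZEB1 windows, the upstream CDH2 window and the ZEB1 window with most CAGGTG or CACCTG letters are shown, so the ZEB1 window was chosen for its matches.
ZEB2, chr2:144520070-144520369, minus strand: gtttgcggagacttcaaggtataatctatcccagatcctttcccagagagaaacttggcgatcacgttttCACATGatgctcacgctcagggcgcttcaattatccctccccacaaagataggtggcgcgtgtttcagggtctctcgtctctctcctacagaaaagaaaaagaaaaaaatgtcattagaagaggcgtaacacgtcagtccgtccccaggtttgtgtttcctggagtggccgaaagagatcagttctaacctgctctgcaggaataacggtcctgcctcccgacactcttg
ZEB1, chr10:31318966-31319265, plus strand: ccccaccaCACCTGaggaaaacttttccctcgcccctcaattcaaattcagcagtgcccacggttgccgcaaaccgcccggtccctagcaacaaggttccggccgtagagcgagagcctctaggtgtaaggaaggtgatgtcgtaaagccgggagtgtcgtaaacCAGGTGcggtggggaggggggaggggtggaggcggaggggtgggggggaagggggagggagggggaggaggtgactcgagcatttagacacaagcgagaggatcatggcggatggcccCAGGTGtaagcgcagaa
VIM, chr10:17227991-17228290, plus strand: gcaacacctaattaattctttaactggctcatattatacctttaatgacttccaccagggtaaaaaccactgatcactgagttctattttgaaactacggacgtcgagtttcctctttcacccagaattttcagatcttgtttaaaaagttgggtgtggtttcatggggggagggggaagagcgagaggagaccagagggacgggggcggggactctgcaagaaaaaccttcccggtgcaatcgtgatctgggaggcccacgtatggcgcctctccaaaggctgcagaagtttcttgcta
CDH2, chr18:28177081-28177380, minus strand: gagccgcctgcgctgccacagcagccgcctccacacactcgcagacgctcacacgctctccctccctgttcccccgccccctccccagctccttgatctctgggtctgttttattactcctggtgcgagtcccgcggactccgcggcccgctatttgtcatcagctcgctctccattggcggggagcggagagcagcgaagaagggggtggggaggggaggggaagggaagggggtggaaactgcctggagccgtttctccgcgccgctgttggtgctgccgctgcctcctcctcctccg

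The ZEB2 window held 1 E-box, CACATG, 180 bases upstream of the start, and 0 of the SNAI and ZEB type. The ZEB1 window shown held 3, all of the SNAI and ZEB type, beginning 242 and 85 bases upstream and at base 34 after the start. Of the other 6 ZEB1 windows, 1 held a CAGGTG beside a CATCTG, 2 held only E-boxes of other letters (1 in one and 3 in the other), and 3 held no E-box. The VIM window and the upstream CDH2 window held 0, and the second CDH2 window held 1, CAGATG, 97 bases upstream. Of 35116 windows of that length in the table, 68.7% held a CANNTG and 20.6% a CAGGTG or CACCTG, so an E-box was common, and no match says only that these letters are not in these windows.

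Between the libraries, CDH1 did not differ beyond counting error and CDH2 was slightly lower, so no opposite movement of the pair was seen. CDH1 (E-cadherin, gene 999, chromosome 16), the adhesion molecule of epithelia and of pluripotent colonies, had 837 counts in the MEIS1-/- library and 857 in the wild-type library, or 32.6 and 34.0 FPKM. Its ratio of 0.967 (0.878 to 1.06) had an interval that included 1. CDH1 counts were not whole before rounding (836.8 and 857.4), so some of its reads were divided with other genes.

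CDH2 (N-cadherin, gene 1000, chromosome 18), the cadherin of mesoderm and neural tissue, had 3177 counts in the MEIS1-/- library and 3700 in the wild-type library, or 136.2 and 161.5 FPKM. It was 1.18-fold lower (1.12 to 1.23), and 24.0% of all compared genes had a lower ratio. CDH11 (gene 1009, chromosome 16), a cadherin of mesenchyme, had 3001 counts in the MEIS1-/- library and 2925 in the wild-type library, or 154.5 and 153.3 FPKM, a ratio of 1.02 (0.965 to 1.07). Both mesenchymal cadherins exceeded CDH1 per unit of length in either library. The FPKM ratio of CDH2 to CDH1 was 4.18 in the MEIS1-/- library and 4.75 in the wild-type library, a change in balance of 0.879 (0.789 to 0.979). For CDH11 to CDH1 the FPKM ratio was 4.74 in the MEIS1-/- library and 4.51 in the wild-type library, and the change of 1.05 (0.942 to 1.17) included 1. CDH11 against CDH2 was 1.13 in FPKM in the MEIS1-/- library and 0.949 in the wild-type library, a balance 1.19-fold higher (1.11 to 1.28). The counting intervals of these 2 overlapped in the wild-type library, so their order was resolved only in the MEIS1-/- library.

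Larger ratios were found elsewhere in the cadherin family. Of the 20 other cadherins listed, 3 were in neither table, 6 were under 10 counts and 11 were compared. Of these 11, 2 were higher, 2 lower and 7 had intervals that included 1, where 15.4% of all compared genes were higher and 14.7% lower. CDH5 (VE-cadherin), the junction molecule of endothelium, was counted 410 times in the MEIS1-/- library and 104 times in the wild-type library, 3.87-fold higher (3.14 to 4.89). CDH13 (T-cadherin), which lacks a cytoplasmic tail, was counted 389 times in the MEIS1-/- library and 157 times in the wild-type library, 2.44-fold higher (2.03 to 2.97). CDH3 (P-cadherin), an epithelial cadherin next to CDH1 on chromosome 16, had 482 counts in the MEIS1-/- library and 760 in the wild-type library, 1.59-fold lower (1.42 to 1.79). The FPKM ratio of CDH3 to CDH1 was 0.649 in the MEIS1-/- library and 0.999 in the wild-type library, so the 2 epithelial cadherins stood level in the wild-type library and not in the other. CDH4 (R-cadherin) had 61 counts in the MEIS1-/- library and 91 in the wild-type library, a log2 ratio of -0.58 (-1.08 to -0.11).

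Over all 23 cadherins, CDH11 held 38.2% of summed FPKM in the MEIS1-/- library and 36.3% in the wild-type library, CDH2 held 33.6% in the MEIS1-/- library and 38.3% in the wild-type library, and CDH1 held 8.06% in both. CDH5 held 4.60% in the MEIS1-/- library and 1.14% in the wild-type library, CDH13 held 4.58% in the MEIS1-/- library and 1.90% in the wild-type library, and CDH3 held 5.23% in the MEIS1-/- library and 8.06% in the wild-type library. The summed level was 404.9 FPKM in the MEIS1-/- library and 421.8 FPKM in the wild-type library.

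**Figure D3:**
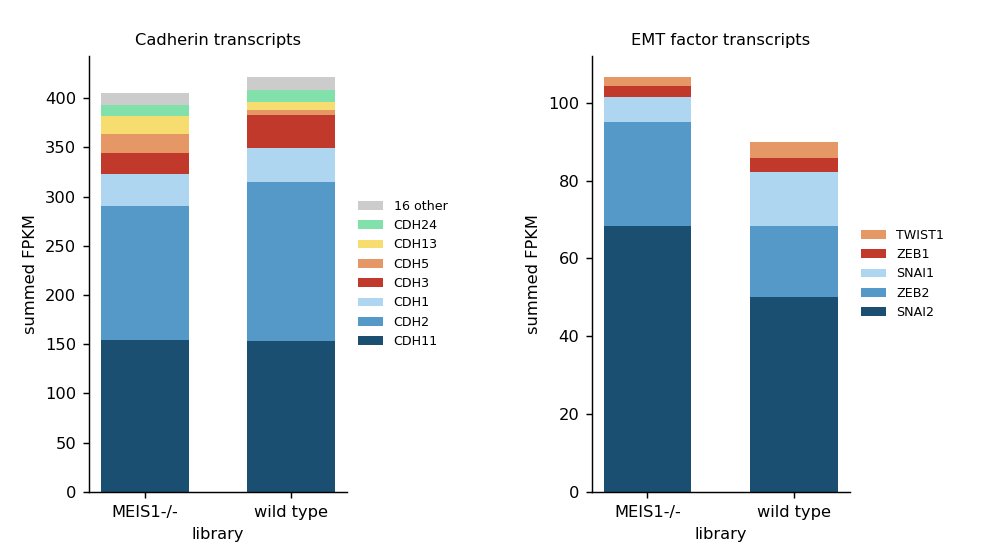
Summed FPKM of 23 cadherin genes (left) and of the 5 EMT factor genes (right) in the MEIS1-/- and wild-type libraries, 1 library each and no error bars. CDH2 and CDH11 fill most of each cadherin bar, the CDH5 and CDH13 bands are wider in the MEIS1-/- library, and SNAI1 takes 6.3 of 106.7 FPKM there, against 14.1 of 89.9 FPKM in the wild-type library.

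Cadherin tails bind catenins. Of 10 catenin and linker genes compared, 6 were lower, 1 was higher and 3 had intervals that included 1, where the interval lay below 1 for 14.7% of all compared genes and for 25.1% of those with at least 500 counts, the depth of 7 of these 10. Their median log2 ratio was -0.16, against 0.0032 over all compared genes. CTNND1 (p120-catenin), which keeps cadherins at the membrane, had 2175 counts in the MEIS1-/- library and 3019 in the wild-type library and was 1.40-fold lower (1.33 to 1.48), on counts that were not whole in either table before rounding. JUP (plakoglobin) had 1151 counts in the MEIS1-/- library and 1375 in the wild-type library, 1.21-fold lower (1.12 to 1.31). ARVCF, a p120 relative, had 60 counts in the MEIS1-/- library and 84 in the wild-type library, with an interval that ended just below 1. CTNND2, a p120 relative best known in neurons, had 225 counts in the MEIS1-/- library and 158 in the wild-type library, 1.41-fold higher (1.14 to 1.74). CTNNB1 (β-catenin) had 2530 counts in the MEIS1-/- library and 2407 in the wild-type library, and CTNNA1 (α-catenin) had 2599 counts in the MEIS1-/- library and 2574 in the wild-type library, both with intervals that included 1; they were chosen after their values were seen.

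VIM (vimentin, gene 7431, chromosome 10), the intermediate filament of mesenchymal cells, was the most abundant of the 10 genes and ranked 9th by FPKM among all genes in the MEIS1-/- library and 15th in the wild-type library. It had 16067 counts (1415 FPKM) in the MEIS1-/- library and 12739 counts (1142 FPKM) in the wild-type library. It was 1.25-fold higher (1.22 to 1.28), a narrow interval that reflects depth, and 17.2% of all compared genes had a higher ratio. Keratins, the filaments of epithelia, were abundant beside it: KRT8 had 10423 counts in the MEIS1-/- library and 10362 in the wild-type library, and KRT18 had 7578 counts in the MEIS1-/- library and 7287 in the wild-type library, both with intervals that included 1 and both chosen after their values were seen. Before rounding, VIM, KRT8 and KRT18 each had a count that was not whole in 1 library or more. Some of their reads were thus divided with other genes. Of the 11 other filament genes compared, 3 were higher, 1 was lower and 7 had intervals that included 1. Their median log2 ratio was 0.073, and 15.4% of all compared genes were higher and 14.7% lower. Among genes with at least 500 counts these shares were 28.7% and 25.1%. LMNA, which encodes the nuclear lamins A and C, had 863 counts in the MEIS1-/- library and 589 in the wild-type library, 1.45-fold higher (1.30 to 1.61). KRT19, a keratin of simple epithelia, had 1529 counts in the MEIS1-/- library and 1366 in the wild-type library, 1.11-fold higher (1.03 to 1.19). SYNM, which encodes synemin, a partner of vimentin filaments, had 310 counts in the MEIS1-/- library and 258 in the wild-type library, with an interval that began just above 1, and for INA, a filament gene of neurons with 168 counts in the MEIS1-/- library and 134 in the wild-type library, the log2 ratio was 0.31 (-0.02 to 0.65).

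EPCAM (gene 4072, chromosome 2), an adhesion molecule of epithelia and of pluripotent cells, had 1072 counts in the MEIS1-/- library and 1332 in the wild-type library, or 117.8 and 149.0 FPKM. It was 1.26-fold lower (1.16 to 1.36), and 18.1% of all compared genes had a lower ratio. The FPKM ratio of EPCAM to CDH1 was 3.61 in the MEIS1-/- library and 4.38 in the wild-type library, a change in balance of 0.824 (0.726 to 0.935), so EPCAM was lower relative to CDH1. The balance of VIM to EPCAM was 1.57-fold higher (1.44 to 1.71) in the MEIS1-/- library. VIM to CDH1 stood at 43.4 in FPKM in the MEIS1-/- library and 33.6 in the wild-type library, a balance 1.29-fold higher (1.17 to 1.43).

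Genes that act with EPCAM were called in both directions. Of 8 compared, 2 were higher, 2 lower and 4 had intervals that included 1, and the median log2 ratio was -0.057. Over all compared genes, the interval lay above 1 for 15.4% and below 1 for 14.7%, so calls in both directions were common. CD44, a hyaluronan receptor found with EPCAM at the membrane and also a mesenchymal marker, had 839 counts in the MEIS1-/- library and 407 in the wild-type library, 2.04-fold higher (1.81 to 2.30). CD9, a tetraspanin partner, had 154 counts in the MEIS1-/- library and 211 in the wild-type library, 1.38-fold lower (1.12 to 1.72). PSEN2, a catalytic subunit of the protease that cuts EPCAM, had 65 counts in the MEIS1-/- library and 98 in the wild-type library, 1.52-fold lower (1.10 to 2.12). CLDN7, a tight junction partner, had 74 counts in the MEIS1-/- library and 94 in the wild-type library and a ratio of 0.781 (0.567 to 1.07).

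**Figure D4:**
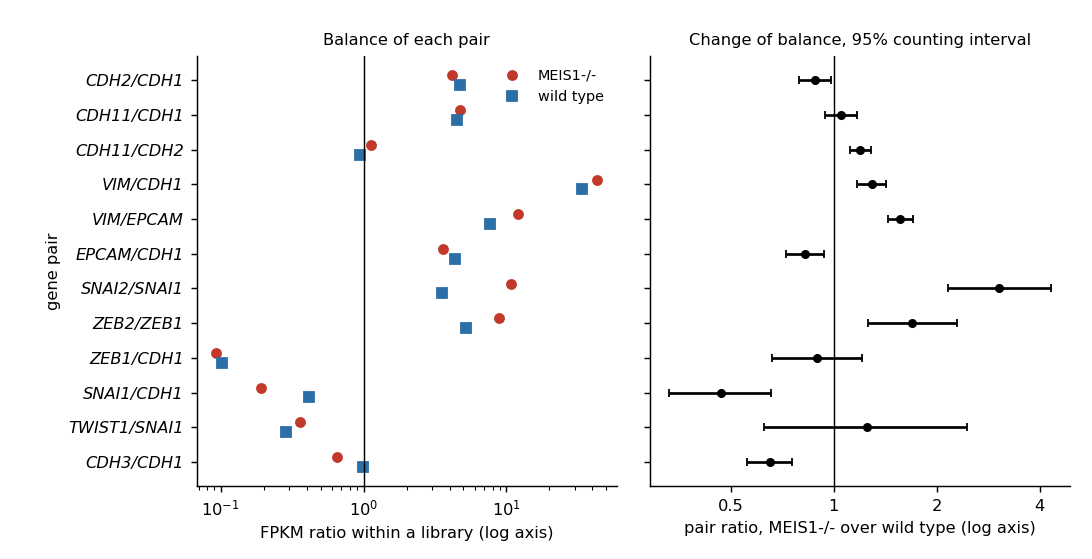
Balance of 12 gene pairs: left, the FPKM ratio within the MEIS1-/- library (red circles) and the wild-type library (blue squares) on a log axis; right, the change of that balance from counts, MEIS1-/- over wild type, with 95% counting intervals. SNAI2/SNAI1 stands farthest right at 3.04, SNAI1/CDH1 farthest left at 0.467, and CDH2/CDH1 lies at 0.879.

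Of the pairs that set a factor against its textbook target, SNAI1 to CDH1 stood at 0.193 in FPKM in the MEIS1-/- library and 0.413 in the wild-type library, a change of 0.467 (0.330 to 0.654). ZEB1 to CDH1 stood at 0.0923 in the MEIS1-/- library and 0.102 in the wild-type library, and the change of 0.892 (0.659 to 1.21) included 1. SNAI2 and ZEB2, the more abundant factors, were not among the pairs set against CDH1. Their own ratios, MEIS1-/- over wild type, were 1.37 and 1.46, beside 0.967 for CDH1, so for them the balance went the other way. CDH1 thus showed no difference beyond counting error in the same pair of libraries in which SNAI1 was lower and SNAI2 and ZEB2 were higher.

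Within each library the levels per length fell in nearly the same order. In the MEIS1-/- library it ran VIM, CDH11, CDH2, EPCAM, SNAI2, CDH1, ZEB2, SNAI1, ZEB1 and TWIST1, and of neighbours in this order only the intervals of ZEB1 and TWIST1 overlapped. In the wild-type library CDH2 stood above CDH11 and TWIST1 above ZEB1. There the intervals of CDH2 and CDH11 overlapped, as did those of CDH11 and EPCAM and those of TWIST1 and ZEB1.

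Other transcription factors of the transition were mostly low or little different. Of 17 listed, 13 were compared, with 1 higher, 3 lower and 9 with intervals that included 1. Their median log2 ratio was -0.084, and 15.4% of all compared genes were higher and 14.7% lower. GRHL3, a grainyhead factor of surface epithelium, had 51 counts in the MEIS1-/- library and 146 in the wild-type library, 2.86-fold lower (2.09 to 4.06). GRHL2, which holds cells in an epithelial state and opposes ZEB1, had 66 counts in the MEIS1-/- library and 103 in the wild-type library, 1.57-fold lower (1.15 to 2.18). KLF8, a repressor of CDH1 in cancer cells, had 445 counts in the MEIS1-/- library and 700 in the wild-type library, 1.59-fold lower (1.41 to 1.79), on counts that were not whole before rounding. PRRX1, a homeobox factor of mesenchyme, had 64 counts in the MEIS1-/- library and 31 in the wild-type library, 2.01-fold higher (1.31 to 3.25).

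Corepressors that SNAI and ZEB proteins recruit differed little: of 16 compared, 2 were higher, 2 lower and 12 had intervals that included 1. Their median log2 ratio was -0.035, and 15.4% of all compared genes were higher and 14.7% lower. SMARCA4, a chromatin remodeller, had 1659 counts in the MEIS1-/- library and 1878 in the wild-type library, 1.14-fold lower (1.07 to 1.22). SIN3A, a scaffold for histone deacetylases, had 566 counts in the MEIS1-/- library and 673 in the wild-type library, 1.20-fold lower (1.07 to 1.35). EZH2, a histone methyltransferase of Polycomb, had 488 counts in the MEIS1-/- library and 420 in the wild-type library, 1.15-fold higher (1.01 to 1.31), and its partner EED had 76 counts in the MEIS1-/- library and 91 in the wild-type library and a ratio of 0.828 (0.601 to 1.13). Among 13 genes known to set the stability of SNAI1 protein, 4 were higher, 1 lower and 8 had intervals that included 1. Their median was 0.075. Over all compared genes the shares were again 15.4% higher and 14.7% lower, and among those with at least 500 counts 28.7% and 25.1%. LOXL2, a lysyl oxidase that stabilises SNAI1, had 1826 counts in the MEIS1-/- library and 1186 in the wild-type library, 1.52-fold higher (1.42 to 1.64). FBXO11, a ubiquitin ligase subunit that targets SNAI1, had 709 counts in the MEIS1-/- library and 551 in the wild-type library, 1.27-fold higher (1.14 to 1.43). PAK1, a kinase that phosphorylates SNAI1, had 266 counts in the MEIS1-/- library and 386 in the wild-type library, 1.46-fold lower (1.25 to 1.72). The deubiquitinase gene USP27X had 72 counts in the MEIS1-/- library and 53 in the wild-type library and a ratio of 1.34 (0.930 to 1.95).

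Genes known from mouse embryos to act in the gastrulation transition were called in both directions. Of 11 compared, 5 were higher and 5 lower, with a median log2 ratio of 0.090. These shares were 15.4% and 14.7% over all compared genes, and 28.7% and 25.1% among those with at least 500 counts. Of the 11, 4 were at least 2-fold lower, against 2.95% of all compared genes. EOMES, a T-box factor that with SNAI1 acts in streak EMT in mouse, had 211 counts in the MEIS1-/- library and 867 in the wild-type library, a log2 ratio of -2.05 (-2.28 to -1.84). WNT3, a ligand that induces the streak, had 190 counts in the MEIS1-/- library and 400 in the wild-type library, 2.12-fold lower (1.79 to 2.54). TBXT (Brachyury), a T-box factor of the streak, had 47 counts in the MEIS1-/- library and 125 in the wild-type library, 2.65-fold lower (1.91 to 3.84). CRB2, a polarity protein needed for cells to leave the mouse streak, had 390 counts in the MEIS1-/- library and 244 in the wild-type library, 1.58-fold higher (1.34 to 1.86).

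**Figure D5:**
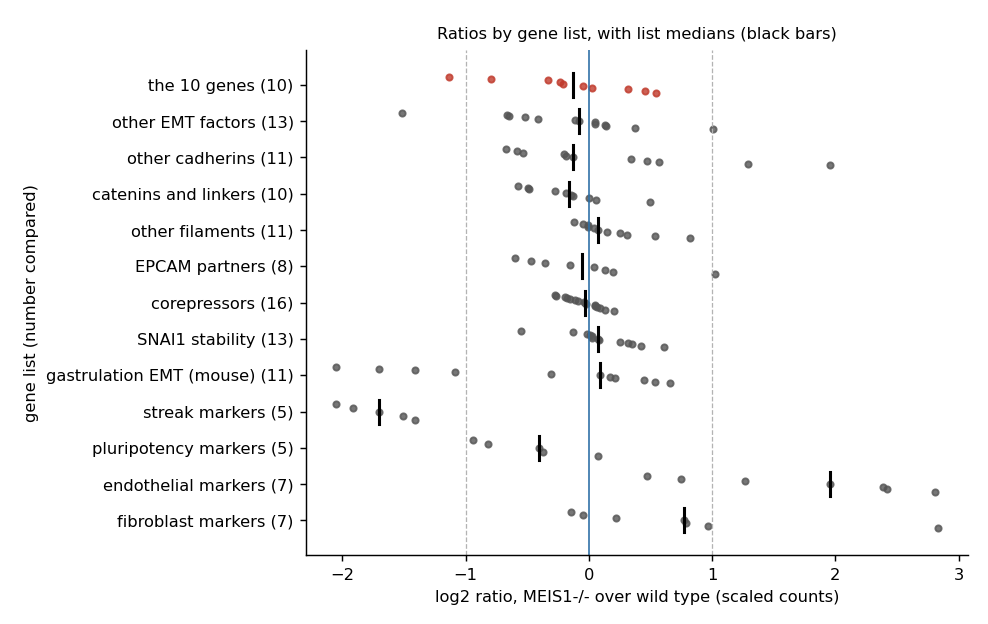
Log2 ratio of scaled counts, MEIS1-/- over wild type, for the compared genes of 13 lists (dots), with list medians (black bars), the median of all compared genes (blue line) and 2-fold limits (dashed). The 10 genes (red) spread from -1.13 to 0.55 around a median of -0.13, corepressors have the median closest to 0, streak markers all lie below -1 and endothelial markers all lie above 0.

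Markers of the cell types that these cultures could hold moved with the same libraries. In bulk RNA, fewer cells of a type cannot be told apart from less RNA per cell. Over all compared genes, intervals lay above 1 for 15.4% and below 1 for 14.7%, and 2.95% were at least 2-fold lower. Among genes with at least 500 counts, intervals lay above 1 for 28.7% and below 1 for 25.1%. Streak markers, with which SNAI1 is known to be expressed, had a summed level of 33.7 FPKM in the MEIS1-/- library and 127.8 FPKM in the wild-type library, and 5 of 5 compared were at least 2-fold lower. Genes such as EOMES and TBXT were also on the gastrulation list, so the counts of these lists are not separate observations. Pluripotency markers, which share EPCAM and CDH1 with epithelia, summed to 213.2 FPKM in the MEIS1-/- library and 311.9 FPKM in the wild-type library, with 3 of 5 lower, while SOX2 had only 9 counts in the MEIS1-/- library and 4 in the wild-type library. Endothelial markers summed to 140.0 FPKM in the MEIS1-/- library and 52.4 FPKM in the wild-type library, with 7 of 7 higher, and fibroblast markers to 529.8 FPKM in the MEIS1-/- library and 329.7 FPKM in the wild-type library, with 5 of 7 higher and DCN in neither table. CDH5 was counted among the endothelial markers and also among the other cadherins. Lateral plate mesoderm markers summed to 612.2 FPKM in the MEIS1-/- library and 554.0 FPKM in the wild-type library, with 4 of 6 higher and 1 lower, BMP4, which had 950 counts in the MEIS1-/- library and 1096 in the wild-type library. The part of these shifts in the ratios of SNAI1, SNAI2, ZEB2, VIM and EPCAM was not tested.

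Blood and neural crest markers were at low levels in both libraries. The counts that follow stand beside 15.4% of all compared genes higher and 14.7% lower. Neural crest markers summed to 1.21 FPKM in the MEIS1-/- library and 2.77 FPKM in the wild-type library, with 1 of 3 compared lower and FOXD3 in neither table. Blood markers summed to 7.52 FPKM in the MEIS1-/- library and 4.20 FPKM in the wild-type library, with 1 of 3 compared higher and HBZ at 0 in both libraries. Endoderm markers summed to 49.9 FPKM in the MEIS1-/- library and 77.2 FPKM in the wild-type library, with 1 of 6 higher and 2 lower, and amnion and trophoblast markers to 46.8 FPKM in the MEIS1-/- library and 48.0 FPKM in the wild-type library, with 2 of 5 higher and 2 lower.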

How the data were processed

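Each genotype had 1 RNA sequencing library (Illumina TruSeq kit, input of 2 µg total RNA, per the labels). The authors deposited, per the file headers, an expected count (an estimated count that need not be whole) and an FPKM value per gene with its average length; a gene absent from a table was taken as 0. Tools listed in the submitters' processing notes, without versions or roles, were RSEM, Bowtie and BWA, with build hg19. Expected counts were rounded and scaled by TMM (edgeR 4.0.16, R 4.3.3). Log2 ratios used a pseudocount of 1, and intervals are exact Clopper-Pearson 95% intervals conditional on the sum of both counts, without a pseudocount (conditional odds ratio intervals for pairs, exact Poisson intervals for levels; scipy 1.17.1). A gene was compared if it reached 10 counts in either library. A count of 0 allows up to 3 counts. Intervals and this limit cover counting error only, since PCR copies are not independent molecules. The computation was tested on simulated counts with Poisson counting error only, which cannot show how the intervals behave with further spread. Symbols and promoters came from RefSeq (GRCh38.p14), seed matches from GENCODE version 29; 18413 of 18518 gene numbers matched a symbol. From each of 8 lists of related genes, up to 4 members with the largest absolute ratio among those with at least 50 counts were eligible to be named, and others are marked. The 10 genes, the lists and the alternatives (other scalings, minimum counts, pseudocounts, FPKM, a 1.5-fold limit) were chosen with earlier results of these data known.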

Additional observations from a re-analysis of the deposited data

How the results depend on the processing

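No paired analysis was possible because each genotype had 1 library, and for the same reason no replicate could be left out. All 82 recomputed log2 ratios of the 10 genes stayed inside their counting intervals. They came from DESeq2, total-count and upper-quartile scaling, other pseudocounts, FPKM, unrounded counts and the antisense sums. Apart from the antisense sums, these reused the same counts, so little movement was possible. The 12 of 12 pair ratios from FPKM also stayed inside their intervals, but depth cancels in them, as does a length equal in both libraries. Among the 10 genes only ZEB1 and ZEB2 differed in length, so for other pairs this outcome was largely fixed in advance. The number of the 10 genes with an interval below 1 was 4 in place of 3 under total-count scaling, the added gene being TWIST1. Of the other named genes 454 of 456 values stayed inside their intervals, and 2 endothelial markers were closer to 0 from FPKM with a pseudocount of 1. The scalings moved the median log2 ratio of all compared genes between -0.0076 and 0.018. Genes at least 2-fold higher and lower numbered 417 and 424, but 161 and 171 with a minimum of 50 counts, where fewer genes were compared, and 827 and 893 at 1.5-fold. With a minimum of 500 counts, chosen after the values were seen, they numbered 24 and 24, intervals lay above 1 for 778 genes and below 1 for 682, and SNAI1 was no longer among the genes compared, so that 0 of the 10 genes were at least 2-fold lower. Depth limits TWIST1, ZEB1 and SNAI1 most.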
